A study of Mus musculus with 9 samples.

Results

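The DEAD-box and DEAH-box RNA helicases are the family to which the targeted gene of this study, Dhx9, belongs. They were taken as every measured gene whose Entrez Gene number maps to a mouse symbol that starts with Ddx or Dhx and a number, without the RNA sensor genes Ddx58 and Dhx58 and without pseudogenes. This gave 51 genes, 36 Ddx and 15 Dhx, of 24570 named genes on the array. Of these, 47 passed the filter on low levels and were tested among 17199 genes.

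These enzymes share a core that binds ATP and RNA, and the family is named after the letters of the amino acid motif that holds ATP, DEAD or DEAH. They unwind RNA duplexes or strip proteins from RNA, and each step of an RNA's life has its own members, from splicing and export to translation and decay. Many act in the nucleolus, where ribosomes are put together, and those steps are busiest in dividing cells such as those of the colonic crypt. DHX9 itself unwinds RNA and DNA, binds double-stranded RNA and acts in transcription, RNA processing and translation.

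Total RNA from whole large intestine was measured on 9 Affymetrix Mouse Gene 2.0 ST arrays, 3 per group. The groups were the hairpin lines DHX9.837/rtTA (DHX9-837) and DHX9.1271/rtTA (DHX9-1271), both with short hairpin RNAs against Dhx9, and FLuc.1309/rtTA, whose hairpin (labelled FLUC) served as control. All mice had a C57BL/6 background and carried rtTA, the activator that switches a hairpin on with doxycycline. All, control mice included, drank water with doxycycline at 1 mg/ml and 5% sucrose for 14 days from 4 weeks of age. The labels name neither the promoter of rtTA nor the number of founder lines, and they do not say that replicates came from separate animals, so the p-values measure only the spread between these samples, which may be technical. In whole tissue, fewer cells of a type and less RNA per cell cannot be told apart.

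The values are log2 levels after RMA, and 1 unit is a 2-fold difference. Array medians lay between 6.25 and 6.28, and 2 arrays of the same group had correlations over all genes from 0.979 to 0.995. All 14 colon epithelium markers were measured, and their mean level per array was 11.35 to 11.38 in DHX9-837, 11.39 to 11.42 in DHX9-1271 and 11.40 to 11.42 in control, and 1 of them rose and 2 fell when both hairpin groups together were set against control. Smooth muscle markers, 8 genes, averaged 10.58 to 10.78 in DHX9-837, 10.83 to 10.96 in DHX9-1271 and 10.76 to 10.92 in control. The mean over 14 B and plasma cell markers was higher in the hairpin groups. It was 7.43 to 7.80 in DHX9-837, 7.38 to 7.92 in DHX9-1271 and 7.09 to 7.22 in control, and 7 of the 14 rose and 0 fell in that contrast. The plasma cell genes Jchain and Mzb1 were not called in it, with log2 folds of 0.08 and 0.09 (limma adjusted p = 0.504 and 0.543). The mean over 20 proliferation genes was 8.28 to 8.42 in DHX9-837, 8.28 to 8.31 in DHX9-1271 and 7.78 to 8.07 in control, and 15 of the 20 rose and 0 fell. Over all genes tested, 8.2% rose and 5.43% fell in that contrast.

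Taking both hairpin groups together against control (the pooled contrast) shows which helicases differed where Dhx9 was lower. Dhx9 fell by close to 1 log2 unit and Ddx39b, which encodes an RNA helicase of the splicing and mRNA export machinery, rose by 0.68. Ddx41, Dhx15 and Ddx10 rose by smaller amounts, and 42 of the 47 tested helicases were not called at an adjusted p under 0.05. The helicases were therefore called at 10.6%, against 13.6% of all genes tested. Called rises made up 8.51% of helicases and 8.2% of all genes, and called falls 2.13% and 5.43%. The median log2 fold of the 47 helicases was 0.05, with Dhx9 or without it, against 0.0013 over all genes tested. Apart from Dhx9, the lowest fold was -0.13.

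The promoters of the 5 helicases called in the pooled contrast are shown here, to give the sequence near the start of each gene with a pooled call. Ddx21 and Ddx51, called with DHX9-837 alone, are not shown. They were taken from RefSeq for GRCm38.p6 as windows of 300 bases that span the start of the gene. Each is written 5′ to 3′ in the direction of its gene, and capitals mark every match, on either strand, to GGGCGG (the GC box), CCGGAAG (the core bound by ETS factors), CCAAT (bound by the factor NF-Y), CACGTG (the E-box) or TATAAA (the element of TATA promoters). No match overlaps one to another of these motifs. The lines give Dhx9 at chr1:153487611-153487910 on the minus strand, Ddx39b at chr17:35241496-35241795 on the plus strand, Ddx41 at chr13:55536609-55536908 on the minus strand, Dhx15 at chr5:52190497-52190796 on the minus strand and Ddx10 at chr9:53248063-53248362 on the minus strand.
Dhx9: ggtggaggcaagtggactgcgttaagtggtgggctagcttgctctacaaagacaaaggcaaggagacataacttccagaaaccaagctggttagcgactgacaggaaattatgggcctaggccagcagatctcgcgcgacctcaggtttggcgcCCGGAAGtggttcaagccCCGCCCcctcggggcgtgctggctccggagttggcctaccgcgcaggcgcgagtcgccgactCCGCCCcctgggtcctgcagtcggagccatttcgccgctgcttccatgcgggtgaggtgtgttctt
Ddx39b: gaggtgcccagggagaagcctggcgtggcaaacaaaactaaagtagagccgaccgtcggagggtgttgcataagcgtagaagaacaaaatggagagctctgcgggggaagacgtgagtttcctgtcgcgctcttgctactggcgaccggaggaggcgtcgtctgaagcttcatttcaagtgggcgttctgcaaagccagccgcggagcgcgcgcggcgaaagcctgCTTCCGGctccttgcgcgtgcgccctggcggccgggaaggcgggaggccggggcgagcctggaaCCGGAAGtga
Ddx41: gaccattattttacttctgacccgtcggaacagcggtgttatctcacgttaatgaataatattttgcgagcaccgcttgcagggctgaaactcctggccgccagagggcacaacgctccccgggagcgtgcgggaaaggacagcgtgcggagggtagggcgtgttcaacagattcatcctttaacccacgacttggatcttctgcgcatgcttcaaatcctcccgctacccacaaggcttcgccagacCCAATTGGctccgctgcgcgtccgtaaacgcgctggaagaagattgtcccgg
Dhx15: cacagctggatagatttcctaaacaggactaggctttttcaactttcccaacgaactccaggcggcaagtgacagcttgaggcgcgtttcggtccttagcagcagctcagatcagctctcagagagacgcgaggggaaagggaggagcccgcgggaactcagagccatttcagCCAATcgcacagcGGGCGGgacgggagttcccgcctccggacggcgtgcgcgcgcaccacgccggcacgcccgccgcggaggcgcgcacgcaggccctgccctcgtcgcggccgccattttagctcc
Ddx10: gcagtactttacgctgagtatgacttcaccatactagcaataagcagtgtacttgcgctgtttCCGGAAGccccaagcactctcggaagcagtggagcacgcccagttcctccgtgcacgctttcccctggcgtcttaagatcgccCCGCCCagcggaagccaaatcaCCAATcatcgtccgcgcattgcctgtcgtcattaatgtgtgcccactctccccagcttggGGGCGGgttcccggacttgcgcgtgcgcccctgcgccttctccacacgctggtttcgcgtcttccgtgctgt

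The promoter of Dhx9 held 2 GC boxes and 1 ETS core, and that of Ddx39b held 2 ETS cores, 1 of them near the downstream end of the window, and no GC or CCAAT box. Ddx41 held 2 matches to the CCAAT box, which overlap on opposite strands, and Dhx15 held 1 CCAAT box and 1 GC box. Ddx10 held 2 GC boxes, 1 CCAAT box and 1 ETS core. None of the 5 windows held CACGTG or TATAAA. These are matches of letters and not measured binding.

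Of the 51 helicases, 46 had a promoter in the RefSeq table. The ETS core was found in 19 of the 46 (41.3%), against 9.93% of all 27025 genes with a promoter and 12.9% of the 17491 protein-coding ones. The GC box was found in 32 (69.6%, against 38.2% and 49.2%) and the CCAAT box in 23 (50%, against 41.1% and 42.3%). The E-box was found in 7 (15.2%, against 8.09% and 8.91%) and the TATA box in 5 (10.9%, against 15.7% and 14.8%). A gene with several listed starts was counted once if any of its windows matched. The median GC content of the windows was 60.7% in helicases, against 52.7% over all genes and 56.3% over protein-coding genes, which bears on how often GC-rich letters match. The ribosome assembly members held the ETS core in 8 of 16 and the E-box, a letter pattern bound by Myc and other factors, in 1 of 16.

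Dhx9 had log2 levels of 8.19, 8.22 and 8.20 in DHX9-837, 8.27, 8.22 and 8.18 in DHX9-1271, and 9.21, 9.18 and 9.32 in control. Every hairpin array lay below every control array, and the hairpin groups overlapped each other. DHX9-837 left 48.8% of the control signal of Dhx9, a log2 fold of -1.03 with an SE of 0.051 (limma adjusted p = 2.09e-05). In DHX9-1271 49.6% was left, a log2 fold of -1.01 with an SE of 0.051 (adjusted p = 5.01e-05). Over the 9 arrays, the exact permutation test, two-sided, gave p = 0.0119 for both hairpin groups against control, the smallest that its 84 splits allow. Each hairpin alone gave p = 0.1, the smallest that 3 arrays against 3 allow in this exact test, and the difference between DHX9-837 and DHX9-1271 had a 95% interval of -0.14 to 0.093.

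Ddx39b encodes UAP56, a DEAD-box ATPase that helps the early spliceosome form and loads the TREX complex, which carries mRNA out of the nucleus. Its log2 levels were 9.98, 10.03 and 10.04 in DHX9-837, 9.81, 9.81 and 9.81 in DHX9-1271, and 9.19, 9.26 and 9.25 in control. No array of any group overlapped those of another group, with DHX9-837 highest and control lowest. Its promoter, shown above, is the one of the 5 with 2 ETS cores, and a link between these and its level was not tested. Against control it was 1.72-fold higher in DHX9-837 (log2 fold 0.78, SE 0.043, limma adjusted p = 3.85e-05) and 1.49-fold higher in DHX9-1271 (0.57, SE 0.043, adjusted p = 0.000468). By p-value it was in place 10 of 17199 genes in the pooled contrast, and in place 3 among the genes with a positive fold. It is the sole helicase besides Dhx9 that was called with each hairpin alone. The rise kept its call in all 19 alternative fits that tested it, with pooled log2 folds of 0.65 to 0.69. DHX9-1271 replicates 1 and 3 had the same value for this gene, a trait of the median polish in RMA, so the spread of that group may be too small.

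**Figure D1:**
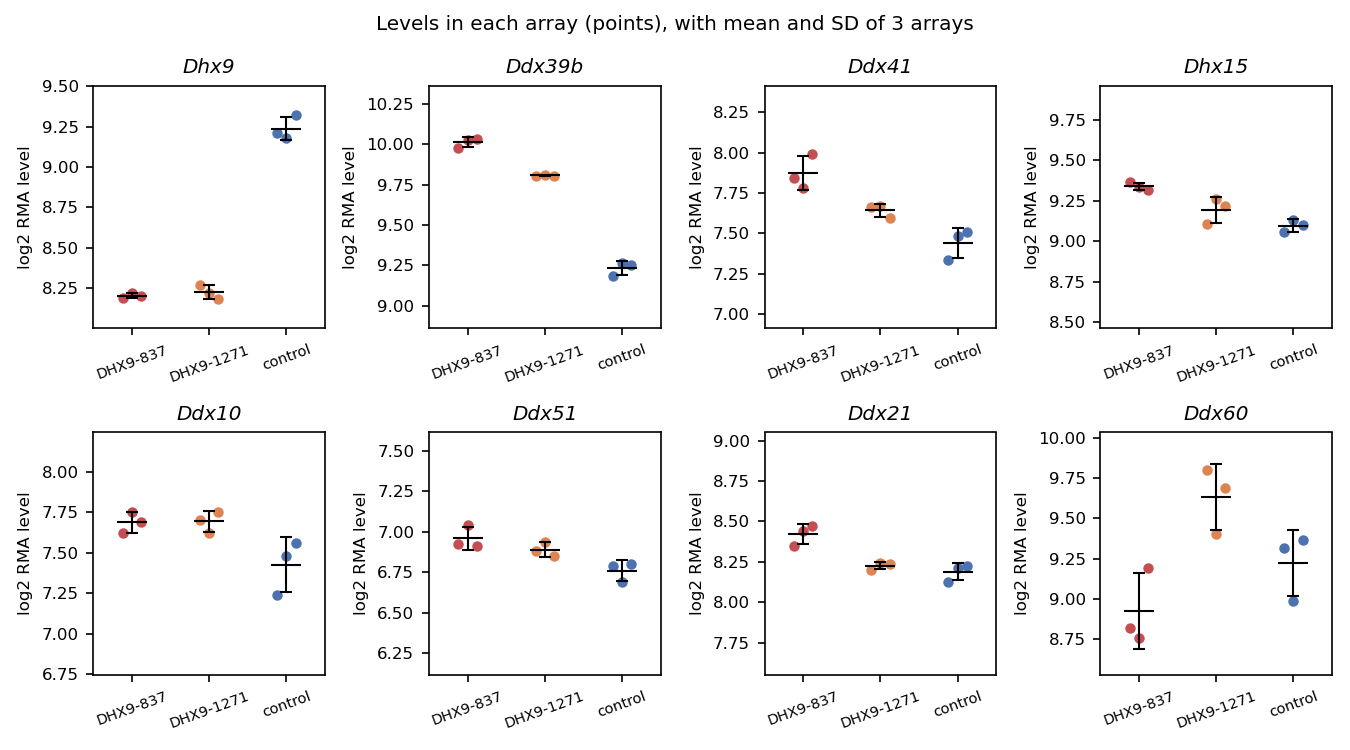
Log2 RMA level (vertical axis, 1.5 log2 units in every panel) of 8 helicase genes in each array, by group; points are arrays and black bars the mean and SD of 3 arrays. Dhx9 lies near 8.20 in both hairpin groups and near 9.24 in control, Ddx39b lies in 3 separate bands, and Ddx60 is highest in DHX9-1271 and lowest in DHX9-837.

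The relatives of Ddx39b in mRNA export were not called. Ddx39a, its closest paralog, had 7.34, 7.57 and 7.71 in DHX9-837, 7.37, 7.21 and 7.34 in DHX9-1271, and 7.29, 7.34 and 6.98 in control. Its groups overlapped, and the pooled log2 fold was 0.22 (SE 0.10, limma adjusted p = 0.189). Ddx19a and Ddx19b encode near-identical helicases that release mRNA from export proteins at the nuclear pore. Ddx19a had 8.29, 8.27 and 8.29 in DHX9-837, 8.11, 8.10 and 8.21 in DHX9-1271, and 8.24, 8.27 and 8.11 in control. Ddx19b had 6.57, 6.94 and 6.84 in DHX9-837, 6.84, 6.84 and 6.72 in DHX9-1271, and 6.84, 6.85 and 6.93 in control. Ddx19a in DHX9-837 lay above both other groups, but above control by less than the last digit shown. Ddx19b overlapped between all groups, and the pooled folds of Ddx19a and Ddx19b were 0.0068 and -0.08. Copies as similar as these can share probes, so their single values are uncertain.

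Ddx39b stands on chromosome 17 within the major histocompatibility complex (RefSeq, GRCm38.p6). Among the 3 nearest measured protein-coding genes on each side, a set chosen after the values of Ddx39b were seen, none rose in the pooled contrast. The adjoining Atp6v1g2 (log2 fold -0.06, limma adjusted p = 0.593) and Nfkbil1 (-0.02, adjusted p = 0.778) were not called. On the other side H2-D1 (-0.21, adjusted p = 0.0413) and H2-Q2 (-0.77, adjusted p = 0.000974), class I antigen presentation genes with many near-identical copies, fell, and H2-Q1 had 0.01. Lta, a cytokine gene, had 0.05 (adjusted p = 0.758).

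The spliceosome is remodelled by a chain of helicases, most of them known best from their yeast counterparts. Of the 9 measured, 2 rose, 0 fell and 7 were not called in the pooled contrast, where 8.2% of all genes rose and 5.43% fell, and the median log2 fold was 0.05. At an unadjusted p under 0.05, 4 of the 9 were higher and 0 lower in the pooled contrast. With DHX9-837 4 were higher and 1 lower, and with DHX9-1271 2 and 0. Of all genes, 29.1%, 30.3% and 20.6% passed that level in either direction in these contrasts. Ddx41, which acts in the late spliceosome and is mutated in inherited myeloid malignancy in people, had 7.84, 7.78 and 7.99 in DHX9-837, 7.67, 7.67 and 7.59 in DHX9-1271, and 7.33, 7.48 and 7.51 in control. Its 3 groups did not overlap, with DHX9-837 highest. Ddx41 had a pooled log2 fold of 0.32 (SE 0.060, limma adjusted p = 0.00982), and the call held in all 20 alternative fits. Alone, DHX9-837 gave 0.43 (adjusted p = 0.00404) and DHX9-1271 gave 0.20 (adjusted p = 0.141), and the difference between them, 0.23, was not called (adjusted p = 0.152).

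Dhx15, which takes spent spliceosomes apart and also acts in ribosome assembly, had 9.36, 9.33 and 9.32 in DHX9-837, 9.11, 9.26 and 9.21 in DHX9-1271, and 9.06, 9.13 and 9.10 in control. DHX9-837 lay above both other groups, and DHX9-1271 overlapped control. The rise was called with DHX9-837 (log2 fold 0.24, SE 0.052, limma adjusted p = 0.0146), but not with DHX9-1271 (0.10, adjusted p = 0.321). Its pooled call (0.17, adjusted p = 0.0387) held without DHX9-1271 replicate 1 and was lost when any other single array was left out (adjusted p up to 0.123).

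The other spliceosome helicases lay between -0.11 and 0.18 in the pooled contrast. Ddx46, which remodels the U2 snRNP (Prp5 in yeast), had 8.84, 8.79 and 8.87 in DHX9-837, 8.71, 8.88 and 8.84 in DHX9-1271, and 8.52, 8.71 and 8.71 in control. DHX9-837 lay above control and DHX9-1271 overlapped it (log2 fold 0.18, limma adjusted p = 0.0847). Ddx42, another U2 snRNP factor, had 7.85, 8.05 and 8.11 in DHX9-837, 8.17, 8.17 and 8.19 in DHX9-1271, and 8.18, 8.17 and 8.27 in control. All DHX9-837 arrays of Ddx42 lay below those of both other groups, at a log2 fold of -0.20 against control that was not called (adjusted p = 0.0805). Dhx8, Dhx16 and Dhx38, which drive the catalytic steps and the release of the spliced mRNA, had -0.01, -0.07 and -0.02, and Ddx23 and Dhx35 had 0.05 and 0.17, all not called.

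Ribosome assembly is the most common task in the family, and many of its members are known mainly from yeast homologs. All 16 assigned to it were tested, and 14 had a positive pooled fold and 2 a negative one, but 1 rose, 0 fell and 15 were not called, where 8.2% of all genes rose and 5.43% fell. The median of the 16 was 0.13, against 0.0013 over all genes tested. With DHX9-837 alone 2 rose, where 8.79% of all genes rose, with a median of 0.17 against -0.0012 over all genes. With DHX9-1271 alone limma called 0 of the 16, where 2.87% of all genes rose and 1.6% fell. Their median there was 0.08, against 0.0061 over all genes. At an unadjusted p under 0.05, 8 of the 16 were higher in the pooled contrast, 9 with DHX9-837 and 3 with DHX9-1271, and 0 were lower in each. That level was passed in either direction by 29.1% of all genes in the pooled contrast, 30.3% with DHX9-837 and 20.6% with DHX9-1271. Over all 47 helicases, 15 were higher and 2 lower at that level in the pooled contrast. The mean over the 16 was 7.43, 7.48 and 7.50 in DHX9-837, 7.41, 7.40 and 7.39 in DHX9-1271, and 7.28, 7.30 and 7.38 in control. The 3 groups did not overlap, with DHX9-837 highest and control lowest. This order of means was not particular to ribosome assembly. The mean of the 4 mRNA export helicases separated in the same order. It ran from 8.05 to 8.22 in DHX9-837, 7.99 to 8.03 in DHX9-1271 and 7.82 to 7.93 in control. Of these 4, Ddx39b alone was called, with a pooled log2 fold of 0.68. Ddx39a, Ddx19a and Ddx19b had 0.22, 0.0068 and -0.08, so that mean rests largely on 1 gene. All hairpin arrays also lay above control in the mean of the 9 spliceosome helicases, but narrowly. The lowest hairpin array there had 7.962 (DHX9-837) and the highest control array 7.956. Over the 46 tested helicases without Dhx9, hairpin arrays ran from 7.77 to 7.85 and control from 7.71 to 7.76. The nearest arrays of these had 7.768 (DHX9-837) and 7.764 (control). Both means include the called member Ddx41, and that of the 46 also Ddx39b. Means without these members were not taken. In the other role groups the hairpin arrays were not all above control.

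Ddx10, needed for early cuts of the ribosomal RNA precursor in yeast (Dbp4), had 7.62, 7.75 and 7.69 in DHX9-837, 7.70, 7.62 and 7.75 in DHX9-1271, and 7.24, 7.48 and 7.56 in control. All hairpin arrays lay above all control arrays. Its pooled log2 fold was 0.27 (SE 0.073, limma adjusted p = 0.0434), with 0.26 in DHX9-837 and 0.27 in DHX9-1271, neither called alone. Control replicate 1 was the lowest array, and without it the fold was 0.17 (adjusted p = 0.111). The call held without control replicate 3 and was lost when any other single array was left out.

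Ddx21, a nucleolar helicase that acts in transcription and processing of ribosomal RNA, had 8.35, 8.44 and 8.47 in DHX9-837, 8.20, 8.24 and 8.24 in DHX9-1271, and 8.13, 8.21 and 8.22 in control. DHX9-837 stood above both other groups, which overlapped. It was called with DHX9-837 (log2 fold 0.23, SE 0.050, limma adjusted p = 0.0152), a call lost without DHX9-837 replicate 3 (adjusted p = 0.0523), and had 0.04 in DHX9-1271 (adjusted p = 0.718). Its paralog Ddx50 had 8.07, 8.14 and 8.16 in DHX9-837, 8.32, 8.16 and 8.16 in DHX9-1271, and 8.14, 8.29 and 8.16 in control, with overlap between all groups and a pooled fold of -0.03.

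Ddx51, a large subunit factor in yeast (Dbp6), had 6.92, 7.04 and 6.91 in DHX9-837, 6.88, 6.94 and 6.85 in DHX9-1271, and 6.79, 6.69 and 6.80 in control. Hairpin arrays all lay above control. The fold of 0.20 in DHX9-837 was called (SE 0.056, limma adjusted p = 0.0427), and the call was lost when any single array was left out (adjusted p up to 0.125). Ddx18, the counterpart of yeast Has1, had the widest spread of the group, with 5.98, 6.10 and 6.03 in DHX9-837, 5.97, 5.83 and 5.35 in DHX9-1271, and 5.64, 5.43 and 5.83 in control. DHX9-837 lay above both others, and the pooled fold of 0.25 was not called (adjusted p = 0.261).

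Ddx52, Ddx56, Ddx24 and Ddx55, whose yeast counterparts are Rok1, Dbp9, Mak5 and Spb4, had hairpin arrays that all lay above control without being called. Ddx52 had 7.10, 7.08 and 7.15 in DHX9-837, 7.10, 7.17 and 7.25 in DHX9-1271, and 6.87, 7.01 and 7.05 in control (pooled log2 fold 0.17, limma adjusted p = 0.0732). Ddx56 had 6.98, 6.92 and 7.12 in DHX9-837, 6.92, 6.95 and 6.92 in DHX9-1271, and 6.72, 6.89 and 6.88 in control (0.14, adjusted p = 0.145). Ddx24 and Ddx55 had pooled folds of 0.10 and 0.08. In Ddx24 the arrays ran from 8.67 to 8.79 in DHX9-837, from 8.66 to 8.82 in DHX9-1271 and from 8.56 to 8.65 in control. In Ddx55 they ran from 6.93 to 6.99 in DHX9-837, stood at 6.93 in every DHX9-1271 array, and ran from 6.84 to 6.89 in control. Dhx37, which acts on the small subunit precursor, had 6.98 in its lowest DHX9-837 array, 6.86, 6.93 and 6.92 in DHX9-1271, and 6.92, 6.63 and 6.83 in control. DHX9-837 thus lay above both other groups, and the pooled fold of 0.16 was not called (adjusted p = 0.126).

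Among the rest, Dhx33, which acts in ribosomal RNA transcription, and Ddx27, Ddx47, Ddx31 and Ddx54, factors of ribosomal RNA processing, had pooled folds of 0.15, 0.13, 0.10, 0.07 and 0.04, none called. Ddx49, a small subunit factor in yeast (Dbp8) and the other negative fold besides Ddx50, had 7.52, 7.60 and 7.65 in DHX9-837, 7.56, 7.58 and 7.61 in DHX9-1271, and 7.60, 7.69 and 7.76 in control (-0.09, limma adjusted p = 0.229). Its groups overlapped.

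**Figure D2:**
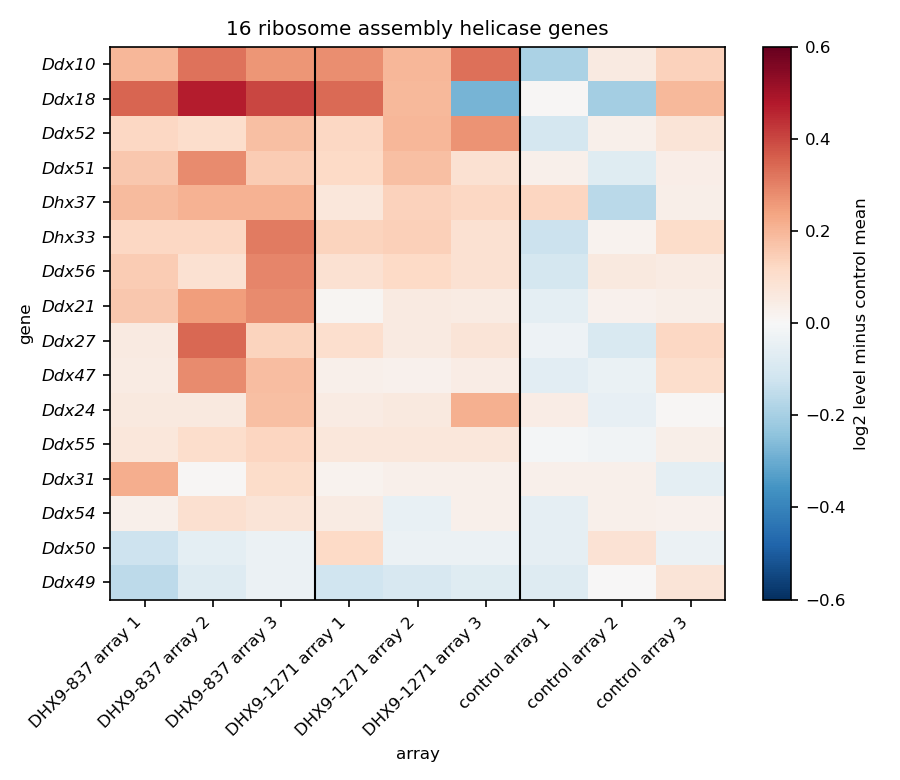
Log2 level minus the control mean (colour) of the 16 ribosome assembly helicase genes (rows, ordered by pooled fold) in each array (columns). Ddx10 at the top has a pooled fold of 0.27 and Ddx49 at the bottom one of -0.09, and the DHX9-837 arrays are above the control mean for 14 of the 16 on average.

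The hairpin arrays did not overlap control and were higher for 8 of 47 helicases (17%, against 10.8% of all genes), 6 of them of the ribosome assembly group. They were lower for Dhx9 alone (2.13%, against 6.8% of all genes). DHX9-837 arrays were all above control for 17 helicases (36.2%, against 17.2%) and all below for 5 (10.6%, against 14.4%). For DHX9-1271 the counts were 9 above (19.1%, against 15.4%) and 1 below (2.13%, against 10.1%).

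Beside the helicases, 24 ribosome assembly factors of other kinds, such as nucleolin and fibrillarin, were measured as a list. Of these, 13 rose and 0 fell in the pooled contrast, 17 and 0 with DHX9-837, 4 and 0 with DHX9-1271, and 3 were higher in DHX9-837 than in DHX9-1271. Among all genes, 8.2% rose and 5.43% fell in the pooled contrast, 8.79% rose and 7.03% fell with DHX9-837, and 2.87% rose and 1.6% fell with DHX9-1271. Between the hairpins, 0.698% of all genes were higher in DHX9-837. The mean of the 24 per array was 7.76 to 7.80 in DHX9-837, 7.57 to 7.63 in DHX9-1271 and 7.44 to 7.51 in control, with no overlap. The medians of their log2 folds were 0.20 pooled, 0.30 in DHX9-837 and 0.09 in DHX9-1271. The fibrillarin gene Fbl was not among those that rose, with a pooled fold of -0.26 (limma adjusted p = 0.277). The means of the proliferation genes and of the B and plasma cell list were also higher in these arrays, as given above. Their part in the helicase levels was not tested.

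**Figure D3:**
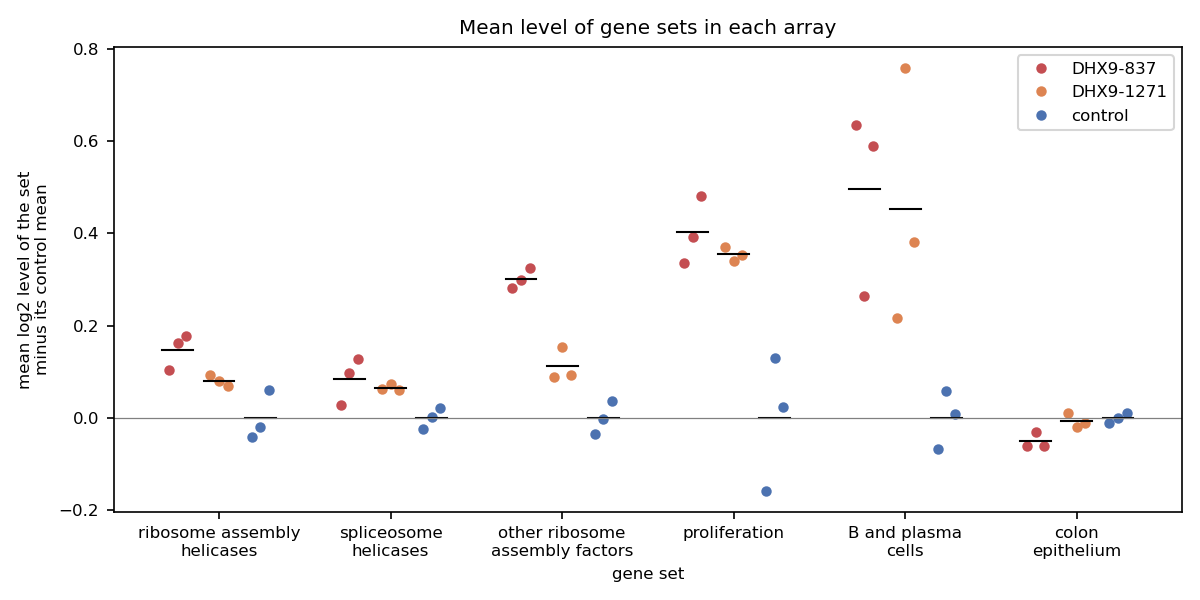
Mean log2 level of 6 gene sets in each array minus the set's control mean (vertical axis), by group; points are arrays and black lines group means. The ribosome assembly helicases average 7.47 in DHX9-837, 7.40 in DHX9-1271 and 7.32 in control, and proliferation genes average 8.34 in DHX9-837, 8.30 in DHX9-1271 and 7.94 in control.

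The helicases of transcription, small RNA processing and RNP assembly had small folds, with 0 of 4 called by limma. At an unadjusted p under 0.05, 1, Ddx5, was lower in the pooled contrast and with DHX9-837. That level was passed in either direction by 29.1% and 30.3% of all genes in these contrasts. Ddx5 and Ddx17 encode the paralogs p68 and p72, which work with the microRNA processor Drosha and as transcription cofactors. Ddx5 had 10.03, 10.02 and 9.97 in DHX9-837, 9.94, 10.06 and 10.17 in DHX9-1271, and 10.24, 10.13 and 10.13 in control. Ddx17 had 9.34, 9.35 and 9.31 in DHX9-837, 9.33, 9.46 and 9.33 in DHX9-1271, and 9.42, 9.43 and 9.46 in control. For both paralogs DHX9-837 lay below control and DHX9-1271 overlapped it, at pooled folds of -0.13 (limma adjusted p = 0.149) and -0.08 (adjusted p = 0.239). Ddx20, a partner of the SMN complex that builds snRNPs, had -0.08, and Ddx1, part of the tRNA ligase complex, had 0.0007.

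In translation and mRNA turnover limma called 0 of the 5 tested members. At an unadjusted p under 0.05, 1, Dhx29, was higher in the pooled contrast and with DHX9-837. With DHX9-837 1, Ddx6, was lower. Of all genes, 29.1% passed that level in either direction in the pooled contrast and 30.3% with DHX9-837. Ddx3x, which helps ribosomes scan structured leaders, had 10.04, 10.09 and 10.06 in DHX9-837, 10.08, 10.13 and 10.09 in DHX9-1271, and 10.06, 10.14 and 10.01 in control, with overlap throughout. Its pooled log2 fold was 0.01, with a 95% interval of -0.081 to 0.11. The Y-linked paralog Ddx3y was left out by the level filter, with 4.14 to 4.22 in DHX9-837, 4.03 to 4.34 in DHX9-1271 and 4.11 to 4.38 in control. Ddx6, a decay and storage factor of P-bodies, had 9.94, 9.97 and 9.93 in DHX9-837, 10.01, 10.05 and 10.05 in DHX9-1271, and 10.03, 10.08 and 10.03 in control. All DHX9-837 arrays of Ddx6 lay below the others (-0.10 against control, limma adjusted p = 0.139). Dhx29, which acts in scanning, had 0.13 in the pooled contrast, Dhx34, a factor of nonsense-mediated decay, had -0.04, and Dhx36, which resolves G-quadruplexes, had -0.01.

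Ddx60, which is induced by interferon, was the helicase in which the hairpins differed most in size. It had 8.82, 8.76 and 9.19 in DHX9-837, 9.80, 9.40 and 9.69 in DHX9-1271, and 9.32, 8.99 and 9.37 in control. DHX9-1271 lay above both other groups, and DHX9-837 overlapped control. The log2 fold against control was -0.30 in DHX9-837 (limma adjusted p = 0.22) and 0.41 in DHX9-1271 (adjusted p = 0.167), and DHX9-837 minus DHX9-1271 was -0.71 (SE 0.15, 95% interval -1.0 to -0.37, adjusted p = 0.0544). The difference just missed the threshold, and 7 of 21 alternative fits called it, with differences from -0.84 to -0.62.

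DHX9-837 and DHX9-1271 left nearly equal Dhx9, and the direct comparison asks whether they differ otherwise. With limma, 0 of 47 helicases were called between them, against 1.91% of all genes (0.698% higher and 1.21% lower in DHX9-837). At an unadjusted p under 0.05, 5 were higher and 2 lower in DHX9-837, where 14.4% of all genes passed that level. Ddx39b came closest, at 0.21 (SE 0.043, 95% interval 0.11 to 0.30, adjusted p = 0.0513), and 5 of 20 alternative fits called it. Arrays of DHX9-837 lay above all those of DHX9-1271 for 8 helicases (17%, against 9.41% of all genes) and below for 4 (8.51%, against 12.6%).

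Against control, 5 helicases rose and 1 fell with DHX9-837 (12.8% called, against 15.8% of all genes, of which 8.79% rose and 7.03% fell). With DHX9-1271 1 rose and 1 fell (4.26%, against 4.47% of all genes, of which 2.87% rose and 1.6% fell). At an unadjusted p under 0.05, DHX9-837 gave 16 higher and 4 lower helicases where 30.3% of all genes passed, and DHX9-1271 gave 8 and 1 where 20.6% passed. The risen ones were Ddx39b, Ddx41, Dhx15, Ddx21 and Ddx51 for DHX9-837 and Ddx39b for DHX9-1271. These comparisons share their control arrays. The median log2 fold of the 47 was 0.07 in DHX9-837 and 0.03 in DHX9-1271, against -0.0012 and 0.0061 over all genes.

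**Figure D4:**
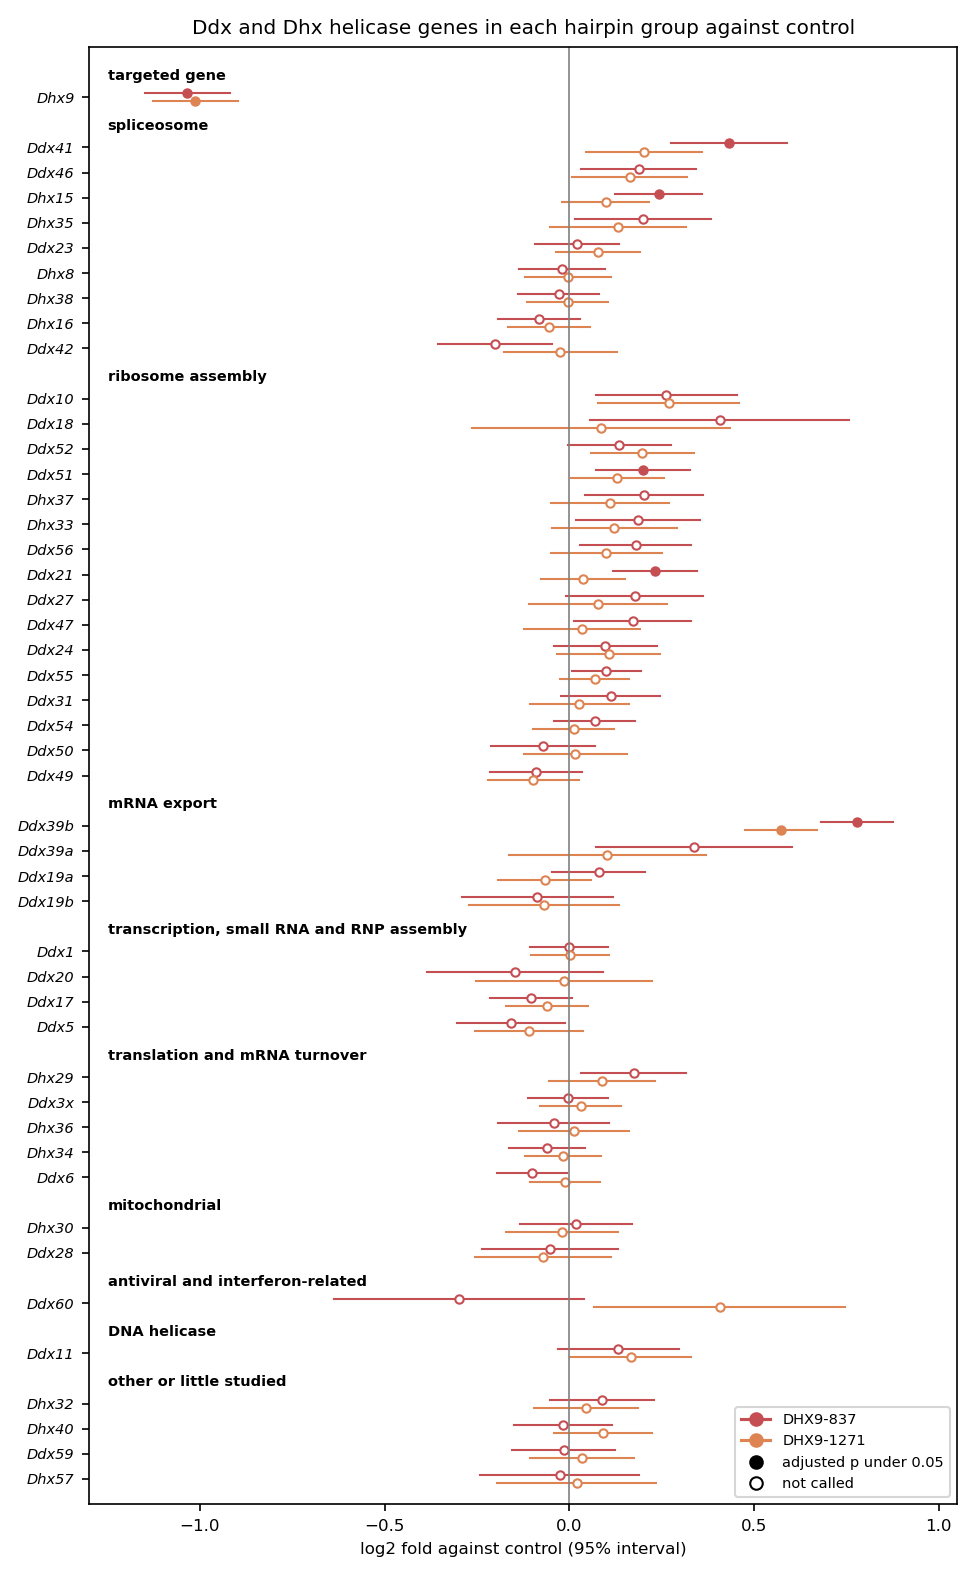
Log2 fold against control (horizontal axis, with 95% interval) of the 47 tested helicases in DHX9-837 (upper, red) and DHX9-1271 (lower, orange), grouped by role and ordered by pooled fold; filled points passed an adjusted p of 0.05. Dhx9 stands apart at -1.03 and -1.01, Ddx39b at 0.78 and 0.57, and most intervals of the other members include 0.

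The mitochondrial helicases Ddx28 and Dhx30, which take part in assembly of the mitochondrial ribosome, had pooled folds of -0.06 and -0.00091, not called. Ddx11, an iron-sulfur DNA helicase of sister chromatid cohesion, had 6.72, 6.66 and 6.58 in DHX9-837, 6.53, 6.79 and 6.75 in DHX9-1271, and 6.49, 6.56 and 6.52 in control (0.15, limma adjusted p = 0.152), and DHX9-1271 overlapped control. Dhx32, Dhx40, Ddx59 and Dhx57, whose roles are little known, had 0.07, 0.04, 0.01 and -0.0025.

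The germ cell helicases Ddx4 (Vasa), Ddx25 and Ddx43 were left out by the level filter, which lay at 5.29. Ddx28, at a mean of 5.37, was the member just inside it and Ddx43, at 5.26, the one just outside. Ddx43 had 5.15, 5.38 and 5.27 in DHX9-837, 5.39, 5.64 and 5.46 in DHX9-1271, and 5.14, 4.91 and 5.03 in control. Hairpin arrays of Ddx43 all lay above control. Fitted with no filter it was called in the pooled contrast (log2 fold 0.35, SE 0.079, limma adjusted p = 0.0334) and with DHX9-1271 (0.47, adjusted p = 0.0473), at a level below that of the filter. Ddx4 ran from 3.50 to 3.81 in DHX9-837, 3.44 to 3.64 in DHX9-1271 and 3.49 to 3.81 in control. Ddx25 ran from 4.15 to 4.29 in DHX9-837, 4.13 to 4.57 in DHX9-1271 and 4.29 to 4.47 in control, and neither was called without the filter.

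RNA helicases with other names were measured as a list of 25 genes, of which 22 were tested. In the pooled contrast 1 rose and 2 fell, and 19 were not called, against 13.6% called among all genes, so the share called lay at the background. Supv3l1, which encodes the helicase of mitochondrial RNA decay, rose by 0.50 on the log2 scale (SE 0.054, limma adjusted p = 0.000975). Dqx1, a DEAH-type gene, fell by 0.50 (adjusted p = 0.00202), and Mtrex, the helicase of the nuclear exosome, fell by 0.25 (adjusted p = 0.0398). Snrnp200, which unwinds U4 from U6 in the spliceosome, had 0.12 (adjusted p = 0.0736). The median of the 22 was 0.02. The translation factor gene Eif4a1 was left out by the filter at a mean of 3.67, although cells in general use it, so a low probe set value is no measure of a low transcript here.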

How the data were processed

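Log2 expression levels of 24973 probe sets on 9 arrays were deposited by the authors. The submitters' processing notes name RMA, the oligo package 1.30.0 and R 3.1.1. RMA corrects background, normalizes by quantiles and summarises probes by median polish, so a shift shared by most transcripts is not seen and arrays can share a value (45.2% of tested genes, 21 of 47 helicases). Which probe set definition and build were used is not given here. Titles gave the groups and replicate numbers. Probe set IDs are Entrez Gene numbers: the platform table listed 24015, and 559 of the other 958, Ddx3y and Ddx19a among them, were named through the RefSeq gene table by the same number. The brighter probe set was kept where a symbol had several.

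Genes under the 30th percentile of the mean level (5.29) were left out, 7371 in all. Tests used limma 3.58.1 in R 4.3.3, a group-means model over all 9 arrays with 4 contrasts (6 residual and 2.82 prior degrees of freedom), two-sided tests and Benjamini-Hochberg adjustment over 17199 genes, and calls at an adjusted p under 0.05. The pooled contrast sets the mean of both hairpin groups against control. The number of arrays limits the precision. The method was tested on simulated data. Values in every array were given for Dhx9, members called in any contrast, the 4 largest rises and falls, 5 paralog pairs and members whose arrays of 1 group lie beyond both others, except where ranges stand in their place. Roles were assigned from general knowledge. The members, lists and tests were chosen with earlier results of these data known. Alternatives are given in the closing section. Plots were made in Python 3.11.15 with matplotlib 3.10.9.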

Additional observations from a re-analysis of the deposited data

How the results depend on the processing

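Dhx9 fell, and Ddx39b and Ddx41 rose in the pooled contrast, under every alternative that could test them. Ddx39b could not be tested where genes with 1 value shared by several arrays were dropped, which left 26 helicases among 9430 genes. The pooled calls of Dhx15 and Ddx10 were lost under 12 of 20 and 11 of 19 alternatives, and the DHX9-837 calls of Ddx51 and Ddx21 under 14 and 2 of 21. Between DHX9-837 and DHX9-1271 the Dhx9 difference, not called, lay between -0.042 and 0.0021 when 1 array was left out, the last without DHX9-1271 replicate 1. The count of helicases that rose in the pooled contrast was 7 with the filter at the median gene and 2 with array weights, and 2 to 4 when 1 array was left out. The count of falls was 1 throughout. With DHX9-837, 3 rose when only the arrays compared were fitted, where 974 of all genes rose. When 1 array was left out 3 to 5 rose, where 979 to 1394 of all genes did. With cyclic loess 2 fell (Ddx42 besides Dhx9), where 1450 of all genes fell. With DHX9-1271, 2 rose with no level filter (Ddx43 besides Ddx39b), where 259 of 24570 genes rose. Without genes with identical values 0 rose, where 474 of 9430 genes did. Between DHX9-837 and DHX9-1271, 1 helicase was lower in DHX9-837 with the filter at the median gene, with a trend, with array weights and without genes with identical values, Ddx60 each time. Of all genes, 330, 357, 463 and 247 were lower in these 4 settings. There, 1 helicase was higher with the filter at the median gene and with a trend, where 178 and 199 of all genes were. With cyclic loess and with array weights 2 were higher, where 187 and 289 of all genes were. When 1 array was left out, 0 to 1 were higher and 0 to 1 lower, where 9 to 130 and 23 to 247 of all genes were. Where the genes tested did not change, the cause was not tested.

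The replicate numbers of the titles are shared between groups, but same-numbered arrays did not deviate together (correlations of deviations from -0.38 to 0.27). With the replicate number as a block, 3 of 47 helicases rose and 1 fell in the pooled contrast, where 1216 of 17199 genes rose and 779 fell. With DHX9-837 4 rose and 1 fell, where 1345 of all genes rose and 1047 fell. With DHX9-1271 1 rose and 1 fell, where 271 of all genes rose and 147 fell. Between the hairpins 1, Ddx60, was lower in DHX9-837 than in DHX9-1271, where 111 of all genes were.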
